A study of Mus musculus with 6 samples.

Results

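The miRNAs described here carry names of 2 families encoded inside the Hox gene clusters: mmu-miR-10a, mmu-miR-10b, miR-196a, mmu-miR-196b and miR-196c. A Hox position is given here for all of them but miR-196c, which has no mature mouse sequence in RefSeq. They were chosen by name, with species prefixes and assay numbers ignored and minor strands (names ending in # or *) left out. The rule found 6 assays for 5 miRNA names among 768 wells, of which 750 held miRNA assays. The wells form 2 PCR cards of 384 wells each. The first card holds mmu-miR-10a, mmu-miR-10b, mmu-miR-196b and a rat assay, rno-miR-196c. What the rat assay reads in mouse RNA was not tested. The second card holds another assay named mmu-miR-10b and a human assay named hsa-miR-196a.

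The study compared lungs of newborn mice raised in hyperoxia, a common model of bronchopulmonary dysplasia, with lungs of mice raised in room air, and measured miRNAs by RT-PCR. The room air group (3 samples, labelled control) and the hyperoxia group (3 samples, 95% oxygen) were both exposed for 7 days from an age under 12 hours and sampled at day 7. The nursing dams were exchanged daily between both atmospheres. The right lung was taken after the pulmonary artery had been flushed with PBS. The labels give no strain, sex or litter and do not say that each sample is a separate animal, so a p-value here speaks only of the sample-to-sample spread, part of which may be technical.

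Hox genes are transcription factors laid out along their clusters in the order in which they act along the body axis, with low-numbered genes acting towards the head and high-numbered genes towards the tail. The miR-10 genes sit beside low-numbered Hox genes and the miR-196 genes beside high-numbered ones, and both families are known to repress Hox transcripts. The lung arises from the anterior foregut, whose mesoderm expresses genes such as Hoxa5 and Hoxb5, and so lies on the miR-10 side of this order.

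The mature sequences show that the members form 2 seed families, and they are printed to show which letters a PCR assay must tell apart. Of the 5 names, 4 have a mature mouse sequence in RefSeq (GRCm38.p6), and miR-196c does not. Capitals mark the seed, bases 2 to 8 from the 5′ end, with which a miRNA pairs with its target.
mmu-miR-10a-5p: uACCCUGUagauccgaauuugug
mmu-miR-10b-5p: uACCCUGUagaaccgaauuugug
mmu-miR-196a-5p: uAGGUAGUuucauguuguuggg
mmu-miR-196b-5p: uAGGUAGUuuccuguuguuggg
The seed ACCCUGU of miR-10a and miR-10b was found in no other mature mouse miRNA of the RefSeq table, and neither was the seed AGGUAGU of miR-196a and miR-196b. Within each family the sequences differ by 1 base outside the seed: U12A from miR-10a to miR-10b, and A12C from miR-196a to miR-196b, counted from 1 at the 5′ end. Across the families, miR-10a and miR-196b are 11 edits apart.

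A set of close relatives, miR-99a, miR-99b and miR-100, shares much of the miR-10 sequence but has another seed and lies outside the Hox clusters. They are shown because they served as a comparison in the same samples.
mmu-miR-99a-5p: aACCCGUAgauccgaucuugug
mmu-miR-99b-5p: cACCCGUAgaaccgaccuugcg
mmu-miR-100-5p: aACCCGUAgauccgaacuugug
The shortest distance to miR-10a is that of miR-100, at 3 edits, and miR-99a is 4 edits and miR-99b 6 edits away.

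Except for miR-196c, for which no position is given, the genes lie in all 4 Hox clusters, here by their hairpins in GRCm38.p6. Mir10a is at chr11:96317165-96317274 on the plus strand, in the HoxB cluster between Hoxb5 and Hoxb4 and inside the annotated span of Hoxb3. Mir10b is at chr2:74726070-74726137 on the plus strand, in the HoxD cluster inside the annotated spans of Hoxd4 and Hoxd3. Mir196b is at chr6:52230081-52230165 on the minus strand, in the HoxA cluster between Hoxa9 and Hoxa10. miR-196a has 2 genes: Mir196a-1 at chr11:96265164-96265265 between Hoxb13 and Hoxb9, in the same cluster as Mir10a, and Mir196a-2 at chr15:102973350-102973434 between Hoxc10 and Hoxc9. A mature miR-196a level cannot be assigned to either gene.

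All values are threshold cycles (Ct), the PCR cycle at which a well's signal crosses a threshold. The lower the Ct, the more RNA was present, and at full efficiency each cycle is a factor of 2. A Ct of 40 marks no amplification, and a Ct of 35 or more was taken as not detected. The first card detected 307 to 319 miRNA assays per sample and the second card 268 to 288. The mean Ct over the assays detected throughout was 0.76 cycles later in hyperoxia than in room air on the first card and 0.19 cycles later on the second. On the first card this shift was 0.75 cycles for the small RNA control U6 and 0.41 for Y1, but -0.08 for snoRNA135, 0.04 for snoRNA202 and -0.13 for U87, so changes are also given with the mean of these controls as reference where that moves them. Changes are therefore given on a relative scale: the log2 relative abundance is that mean for the sample and card, minus the assay's Ct. Lung markers on the first card were early: miR-126-3p, the endothelial miRNA, crossed at 11.30 to 13.57 cycles, and all 5 epithelial miRNAs of the miR-200 family and all 4 smooth muscle and mesenchymal miRNAs crossed by cycle 21.77. The striated muscle miRNAs miR-1 and miR-133a and the liver miRNA miR-122 were also detected, between 18.08 and 30.37 cycles.

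The second card carries limits that bear on both of its members. Room air 1 and hyperoxia 2 have the identical Ct in 308 of the 309 second-card wells that amplified in both, both members included, against 0 of 312 on the first card. Those values were left out, so second-card members rest on 2 samples per group. Of the 105 second-card names that carry an assay number, 0 match the number listed for their own well and 105 match the number listed 3 wells later, so which assay each second-card value belongs to is uncertain.

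In room air lung, miR-10a was the earliest of the first-card members. Its Ct was 19.21, 19.30 and 19.53 in the 3 room air samples, a mean of 19.35 ± 0.16 (SD, n = 3). Between 25.1% and 28.5% of the miRNA assays detected in a sample crossed earlier than miR-10a, over all 6 samples, so it stood in the upper part of the card in both groups. miR-10b crossed at 23.44, 23.31 and 23.43 cycles in room air, a mean of 23.39 ± 0.07 (SD, n = 3), and 53.4% to 62.2% of the detected assays were earlier than it. The 3 room air values lay close together, and miR-10b stood near the middle of the card.

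The miR-196 assays of the first card were late. rno-miR-196c crossed at 28.38, 29.44 and 28.64 cycles in room air (mean 28.82 ± 0.55, SD, n = 3), with 81.5% to 88.3% of the detected assays earlier over all 6 samples. miR-196b crossed at 32.08, 33.00 and 33.56 cycles in room air (mean 32.88 ± 0.75, SD, n = 3), with 93.1% to 98.7% of the detected assays earlier. miR-196b was detected in every sample, but among the last assays of the card and near the limit of 35.

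**Figure D1:**
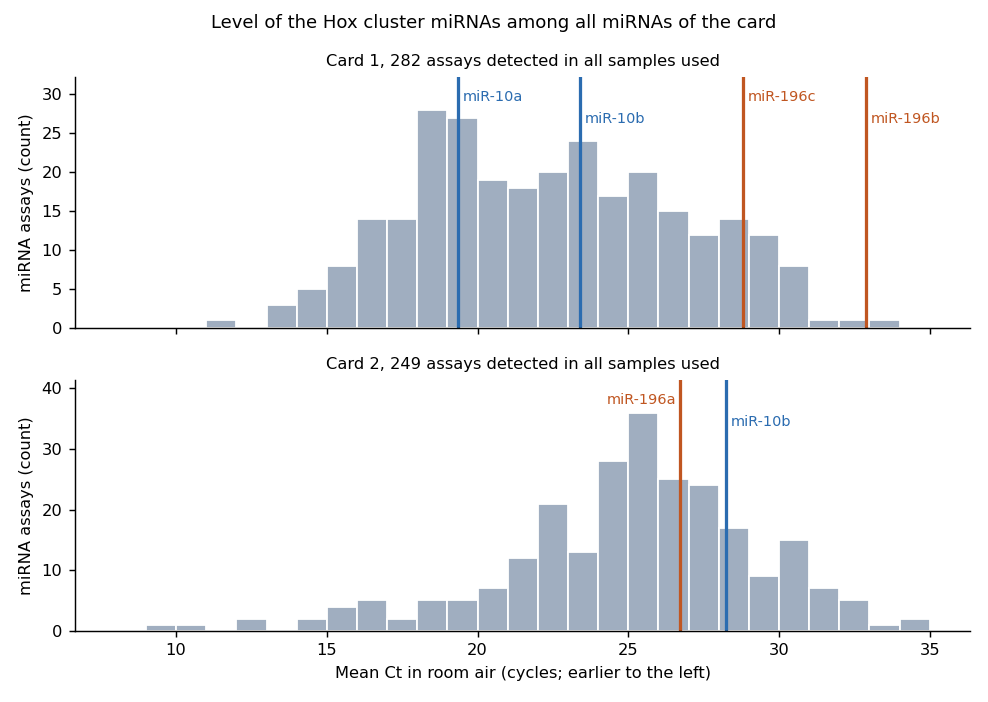
Histograms of the mean Ct in room air (x axis, cycles, earlier to the left) over miRNA assays that every sample used detected, as counts of assays (y axis), for the first card (282 assays, 3 samples) and the second card (249 assays, 2 samples). Vertical lines mark the members: on the first card miR-10a at 19.35, miR-10b at 23.39, miR-196c at 28.82 and miR-196b at 32.88, and on the second card miR-196a at 26.73 and miR-10b at 28.25.

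On the first card the order of the members by Ct was the same in 6 of 6 samples: miR-10a, miR-10b, miR-196c, miR-196b. Within a sample, miR-10b crossed 3.90 to 4.73 cycles after miR-10a, miR-196c crossed 3.65 to 6.13 cycles after miR-10b, and miR-196b crossed 2.63 to 4.92 cycles after miR-196c. No 2 neighbours in this order overlapped in Ct over the 6 samples. From miR-10a to miR-196b the gap was 11.92 to 14.03 cycles. Set against the Hox map, both miRNAs beside the low-numbered genes Hoxb4 and Hoxd4 crossed earlier than the miRNA between Hoxa9 and Hoxa10, by 7.45 cycles or more in every sample. The Ct of different assays also depends on primers and efficiency, which the sources used here do not give, so these gaps describe assays and are no measured ratio of molecules.

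The second card did not repeat that order. Its miR-196a assay, whose genes lie beside Hoxb9 and Hoxc9, crossed 0.76 to 3.44 cycles before its miR-10b assay in the 4 samples used. In room air, miR-196a crossed at 27.98 and 25.49 cycles and miR-10b at 28.74 and 27.77 cycles. The assay named miR-10b on the second card crossed 3.33 to 5.43 cycles later than the assay named miR-10b on the first card in these 4 samples. The order of the families along the Hox map therefore rests on the first card, where miR-196a was not measured. Both strands of miR-615, which lies between Hoxc6 and Hoxc4, were also on the first card and did not amplify in any sample. The order covers only the miR-10 and miR-196 assays and not every Hox miRNA of that card.

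The raw Ct of both miR-10 assays on the first card was later in hyperoxia, while that of miR-196b had the same mean in both groups. miR-10a crossed at 20.40, 19.94 and 20.43 cycles in hyperoxia, a mean of 20.26 ± 0.28 (SD, n = 3), which is 0.91 cycles later than in room air. miR-10b crossed at 24.87, 24.64 and 25.16 cycles, a mean of 24.89 ± 0.26 (SD, n = 3), which is 1.497 cycles later. For 2 of the 4 first-card members, miR-10a and miR-10b, all 3 hyperoxia samples were later than all 3 room air samples, and the same held for 46.5% of the 282 assays detected in every sample of the card. miR-196b crossed at 32.32, 33.14 and 33.19 cycles in hyperoxia, a mean of 32.88 ± 0.49 (SD, n = 3) against 32.88 in room air, and both groups overlapped throughout.

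**Figure D2:**
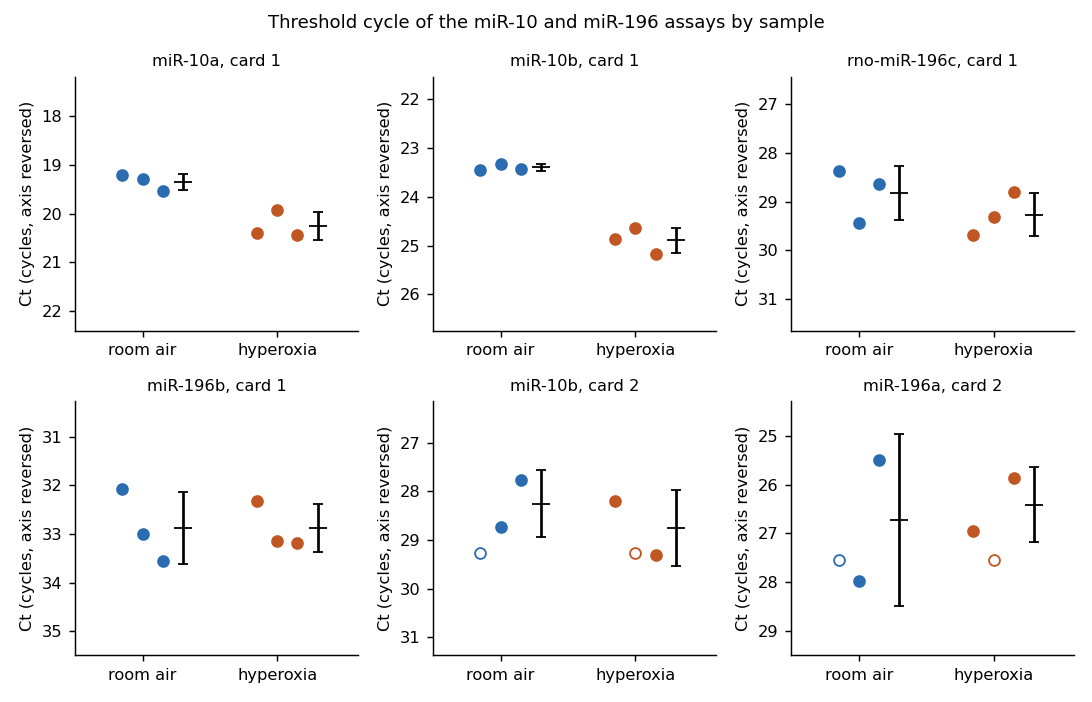
Ct (y axis, cycles, with earlier values at the top) of each member in every sample by group, for room air and hyperoxia; points are samples, crosses with bars are the mean ± SD over the samples used, and open points are the second-card values shared by room air 1 and hyperoxia 2 and left out. The hyperoxia samples of miR-10a and miR-10b on the first card lie at later cycles than every room air sample, while those of miR-196b and miR-196c overlap with room air.

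On the relative scale, no member passed the test. None of the 6 members had an adjusted p under 0.05 in limma with Benjamini-Hochberg adjustment over 551 assays, where the background was 0% of all assays, and 0 of 6 had an unadjusted limma p under 0.05, against 9.07% (50 of 551). The groups did not overlap in relative abundance for 0 of the 4 first-card members, against 22.5% of the 302 first-card assays tested. The fitted change was negative for 3 members and positive for 3, with a median of 0.08 on the log2 scale, and negative for 57.9% of all assays tested, with a median of -0.12. Since the samples are whole lung, fewer cells of a type and less of a miRNA per cell cannot be told apart.

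miR-10b, the HoxD member, had the lowest fitted change. The room air samples had a log2 relative abundance of -1.41, -0.83 and -0.83, and the hyperoxia samples had -1.40, -2.03 and -1.85. The groups touched only through the lowest room air sample, room air 1, and the highest hyperoxia sample, hyperoxia 1. The log2 fold change was -0.74 ± 0.31 (SE), a fold of 0.600 with a 95% interval from 0.354 to 1.02 and an adjusted p of 0.589 in limma. The interval reaches from a fall by more than a factor of 2 to no change. With the small RNA controls as reference the log2 fold change was -1.30 ± 0.41 (SE, adjusted p of 0.417 in limma).

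miR-10a, the HoxB member, had a fitted change nearer to 0, and its size depended on the reference. The room air samples had a log2 relative abundance of 2.82, 3.18 and 3.07 and the hyperoxia samples 3.07, 2.68 and 2.88, with overlapping groups. The log2 fold change was -0.15 ± 0.24 (SE), a fold of 0.901 with a 95% interval from 0.592 to 1.37 and an adjusted p of 0.867 in limma. Most of its shift in raw Ct, 0.91 cycles, was shared with the mean of the card, 0.76 cycles, and with the small RNA controls as reference the log2 fold change was -0.71 ± 0.41 (SE, adjusted p of 0.470 in limma). The value also depended on single samples: without hyperoxia 2 it was -0.04, without room air 2 it was -0.07, without room air 1 it was -0.25 and without hyperoxia 1 it was -0.25.

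miR-196b, the HoxA member, had the highest fitted change, with wide error. The room air samples had a log2 relative abundance of -10.06, -10.51 and -10.96 and the hyperoxia samples -8.85, -10.53 and -9.88. Hyperoxia 1 and 3 lay above all room air samples and hyperoxia 2 among them. The log2 fold change was 0.76 ± 0.51 (SE), a fold of 1.69 with an adjusted p of 0.689 in limma; it was 0.30 without hyperoxia 1, 1.16 without hyperoxia 2 and 0.19 with the small RNA controls as reference, and its sign comes with the scaling, since the raw Ct difference between group means was 0.004 cycles.

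The rat assay rno-miR-196c had a log2 relative abundance of -6.35, -6.96 and -6.04 in the room air samples and -6.22, -6.70 and -5.50 in those from hyperoxia, with overlapping groups. Its log2 fold change of 0.31 ± 0.42 (SE, adjusted p of 0.846 in limma) turned negative with the small RNA controls as reference, at -0.25, and without hyperoxia 3, at -0.04; it was 0.06 without room air 2, 0.50 without room air 3 and 0.60 without hyperoxia 2. The miR-10b assay of the second card crossed at 28.20 and 29.31 cycles in hyperoxia, around its room air values. Its log2 fold change was -0.31 ± 0.60 (SE, n = 2 per group, adjusted p of 0.887 in limma). That value was -0.74 with the small RNA controls as reference, 0.06 with the median as reference, 0.12 without room air 3 and 0.15 without hyperoxia 3. The miR-196a assay crossed at 26.95 and 25.87 cycles in hyperoxia, inside the range of its room air values. Its log2 fold change was 0.51 ± 1.03 (SE, n = 2 per group, adjusted p of 0.895 in limma). That value was 0.08 with the small RNA controls as reference, -0.67 without room air 2, -0.12 without hyperoxia 3 and 1.70 without room air 3. With intervals from -2.05 to 1.42 for miR-10b and from -2.47 to 3.48 for miR-196a on the log2 scale, a change by a factor of 2 in either direction lay within the error of both second-card members.

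**Figure D3:**
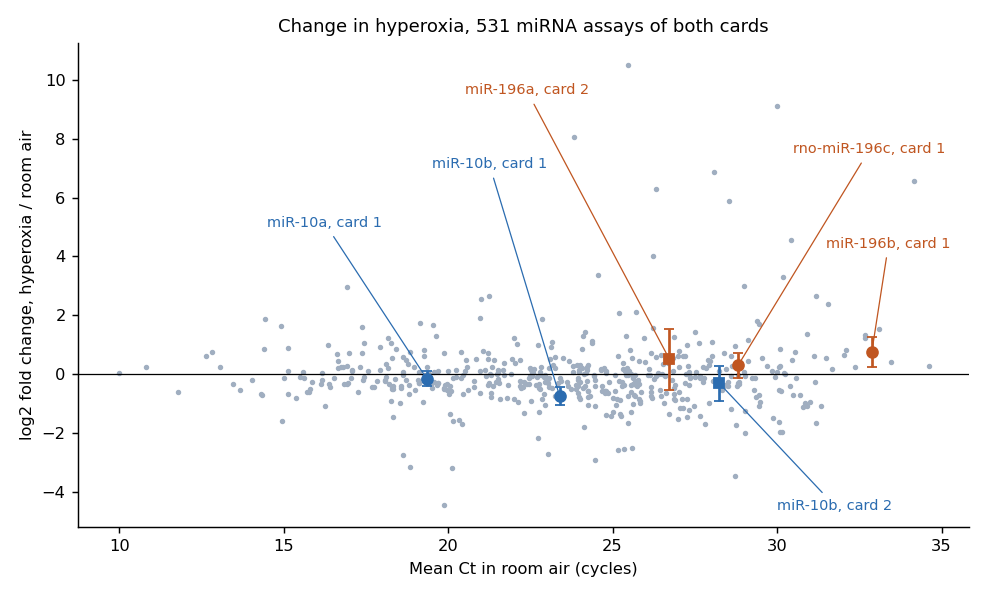
log2 fold change of hyperoxia over room air (y axis, in log2 relative abundance) against mean Ct in room air (x axis, cycles) for the 531 miRNA assays that every sample used detected; grey points are assays, coloured points are the members with bars of 1 SE, circles for the first card and squares for the second. The members lie inside the cloud of assays, from -0.74 for miR-10b to 0.76 for miR-196b on the first card. The signs for miR-196b and miR-196c turn without normalization. That for miR-196c also turns with the mean of the small RNA controls, with the authors' U6 wells (first card, row A) and without hyperoxia 3. The sign for miR-10b of the second card turns with the median as reference and without room air 3 or hyperoxia 3. That for miR-196a turns without room air 2 or hyperoxia 3.

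The authors' deposited table gives a fold of hyperoxia over room air for each well, from group means relative to U6 and with no test. In the authors' deposited table the fold is 0.719 for miR-10a, 0.479 for miR-10b, 1.35 for miR-196b and 0.989 for miR-196c. For the second-card wells the authors' deposited table gives 1.07 for miR-10b and 1.57 for miR-196a, with the shared values counted in both samples. Computed here with the same U6 wells as reference, the log2 fold change of miR-10a was -0.48 and that of miR-10b -1.06 in limma, with adjusted p of 0.602 and 0.443.

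The members of the first card can also be set against each other inside a sample, which needs no reference. The question was whether they moved unequally, and the 3 pairs among miR-10a, miR-10b and miR-196b were compared, with p adjusted over the 3. miR-10b crossed 4.23, 4.01 and 3.90 cycles after miR-10a in room air (mean 4.05 ± 0.17, SD, n = 3) and 4.47, 4.71 and 4.73 cycles after it in hyperoxia (mean 4.63 ± 0.14, SD, n = 3). All 3 hyperoxia gaps exceeded all 3 room air gaps. The gap was 0.59 cycles wider in hyperoxia, a 1.502-fold higher ratio of miR-10a to miR-10b, with an exact two-sided permutation p of 0.1, the smallest that 3 against 3 samples can give, and 0.15 after adjustment. Of the 281 other assays detected throughout the card, 13.9% (39) likewise had groups that did not overlap in their Ct difference from miR-10a. For the difference from miR-10b the share was 34.2% (96).

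miR-196b crossed 8.64, 9.68 and 10.13 cycles after miR-10b in room air (mean 9.49 ± 0.76, SD, n = 3) and 7.45, 8.502 and 8.03 cycles after it in hyperoxia (mean 7.99 ± 0.53, SD, n = 3). The change was -1.49 cycles, with an exact two-sided permutation p of 0.1 and 0.15 after adjustment. The groups did not overlap, but neither did those of 34.2% (96) of the 281 other assays in their Ct difference from miR-10b. The gap from miR-10a to miR-196b was 12.87, 13.70 and 14.03 cycles in room air (mean 13.53 ± 0.60, SD, n = 3) and 11.92, 13.21 and 12.75 cycles in hyperoxia (mean 12.63 ± 0.65, SD, n = 3), and here the groups overlapped. The change was -0.91 cycles, with an exact two-sided permutation p of 0.2, also 0.2 after adjustment. No pair can pass 0.05 with this number of samples. With any 1 sample left out, the change ran from 0.51 to 0.68 for miR-10a against miR-10b. It ran from -1.92 to -1.17 for miR-10b against miR-196b and from -1.24 to -0.55 for miR-10a against miR-196b. For both pairs with miR-10b the groups did not overlap, so leaving out 1 sample could not turn the sign. The pair of miR-10a and miR-196b, whose groups overlapped, also kept its sign.

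The pairs with the rat assay miR-196c are described without a test. miR-196c crossed 4.94, 6.13 and 5.22 cycles after miR-10b in the room air samples. Under hyperoxia it crossed 4.82, 4.67 and 3.65 cycles after miR-10b, a change of -1.05 cycles. These groups did not overlap, and neither did those of 34.2% (96) of the 281 assays set against miR-10b. The gaps from miR-10a to miR-196c and from miR-196c to miR-196b overlapped between the groups, with changes of -0.46 and -0.45 cycles.

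**Figure D4:**
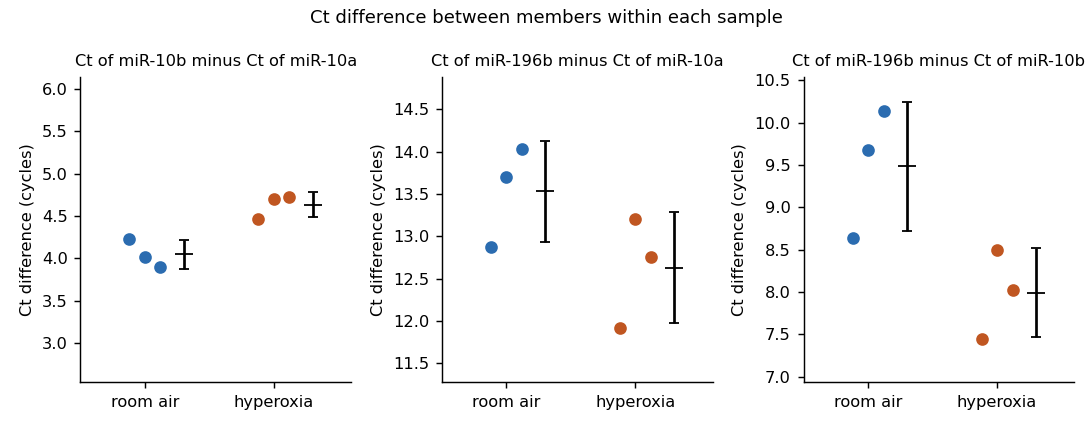
Difference in Ct within each sample (y axis, cycles) for the 3 pairs among miR-10a, miR-10b and miR-196b of the first card, by group; points are samples and crosses with bars are the group mean ± SD. The gap from miR-10a to miR-10b is wider in all 3 hyperoxia samples (4.47 to 4.73) than in room air (3.90 to 4.23), the gap from miR-10b to miR-196b is narrower in all 3 (7.45 to 8.502 against 8.64 to 10.13), and the gap from miR-10a to miR-196b overlaps. Of the other assays, 13.9% likewise do not overlap in their difference from miR-10a and 34.2% in that from miR-10b.

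The relatives outside the Hox clusters crossed earlier than both miR-10 miRNAs. In room air the mean Ct was 16.37 for miR-99b, 18.34 for miR-100 and 18.81 for miR-99a, and it was 18.26 for miR-125a-5p and 18.18 for miR-125b-5p, which are transcribed from the same clusters as the miR-99 family. All 3 sequence relatives had a negative fitted change: -0.38 ± 0.30 (SE) for miR-99a, -0.33 ± 0.33 for miR-99b and -0.40 ± 0.29 for miR-100, with adjusted p of 0.737, 0.776 and 0.689 in limma. These values lie between those of miR-10a and miR-10b, and they still did with the small RNA controls as reference, at -0.95, -0.89 and -0.96. Single samples moved them: miR-99a was -0.14 without room air 2, and miR-100 was -0.22 without room air 2 and -0.22 without hyperoxia 2. miR-99b ran from -0.57 without hyperoxia 1 and -0.52 without room air 1 to -0.18 without room air 3 and -0.16 without hyperoxia 2. Of the 5 miRNAs, 0 passed the test; miR-125a-5p was at -0.91 ± 0.47 (-1.48 with the controls as reference, -0.61 without room air 1 and -1.41 without room air 3). miR-125b-5p was at 0.20 ± 0.24, became -0.36 with the small RNA controls as reference, and was 0.09 without hyperoxia 1 and 0.32 without hyperoxia 3.

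By their ratio over the 6 samples, the first-card members had different nearest miRNAs. The measure is the SD of the Ct difference between 2 assays, which is small where the ratio is constant; it was taken over the 281 other assays detected throughout the card, all of which share the same samples and cards. For miR-10a the closest were miR-130a, miR-128a and miR-107, with SDs of 0.109, 0.120 and 0.128 cycles against a median of 0.494 over all assays, and miR-100 was at rank 19 and miR-10b at rank 85. For miR-10b the closest were miR-145, let-7g and miR-551b, with SDs of 0.166, 0.232 and 0.238 cycles against a median of 0.620. The relatives miR-99b and miR-100 came next at ranks 4 and 6 for miR-10b, ahead of miR-10a at rank 22.

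miR-145, the closest to miR-10b, is a smooth muscle miRNA and had a fitted change of -0.68 (adjusted p of 0.477 in limma). The measure spans both groups, so an assay with a change like that of the member is favoured by the way partners are chosen. The 4 smooth muscle and mesenchymal markers as a list had 2 positive and 2 negative changes, from -0.68 to 0.49, and 0 passed the test; the share of this cell type in the change of miR-10b was not tested. For miR-196b the closest were miR-211, miR-183 and miR-489, with SDs of 0.279, 0.514 and 0.543 cycles against a median of 0.927. For miR-196c they were miR-137, miR-183 and miR-135b, with SDs of 0.222, 0.292 and 0.302 cycles against a median of 0.717. miR-183, known from epithelial and sensory cells, stood at rank 2 for both, while miR-196c was only at rank 58 for miR-196b and miR-10b at rank 182.

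On the second card the same measure rests on 4 samples and 248 assays, and names are uncertain there. The assay named miR-10b was closest to those named miR-1931, miR-487b and miR-376a#, with SDs of 0.073, 0.091 and 0.112 cycles against a median of 0.718. The assay named miR-196a was closest to those named miR-1197, miR-1948 and miR-1897-3p, with SDs of 0.327, 0.334 and 0.414 cycles against a median of 1.35. For the second-card miR-10b, the miR-196a assay stood at rank 191.

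Among the other small RNAs of the Hox clusters, miR-615 was not detected, the minor strand of miR-10a was at the limit, and those of miR-10b and miR-196a were early in single samples. Both strands of miR-615, which lies inside the annotated span of Hoxc5, had a Ct of 40 in all 6 samples. The minor strand assays lie on the second card, where names are uncertain and 2 samples per group were used. The minor strand of miR-10a crossed at 34.07 and 34.81 cycles in the room air samples and at 34.05 and 35.21 cycles under hyperoxia, at the limit of detection, and was not tested. The minor strand of miR-10b crossed at 34.80 and 33.53 cycles in the room air samples and at 32.22 and 23.36 cycles under hyperoxia, so that hyperoxia 3 was far earlier than the other samples used. The minor strand of miR-196a ranged more widely still, with 27.89 and 32.46 cycles in the room air samples and 33.91 and 20.19 cycles under hyperoxia. Neither passed the test, with log2 fold changes of 6.56 ± 3.35 (SE, adjusted p of 0.680 in limma) and 3.31 ± 5.42 (SE, adjusted p of 0.868 in limma). The minor strand of miR-10b was at 2.04 without hyperoxia 3 and at 10.89 without hyperoxia 1, where either fit rests on 1 hyperoxia sample. That of miR-196a was at -3.64 without hyperoxia 3 and at 10.07 without hyperoxia 1.

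**Figure D5:**
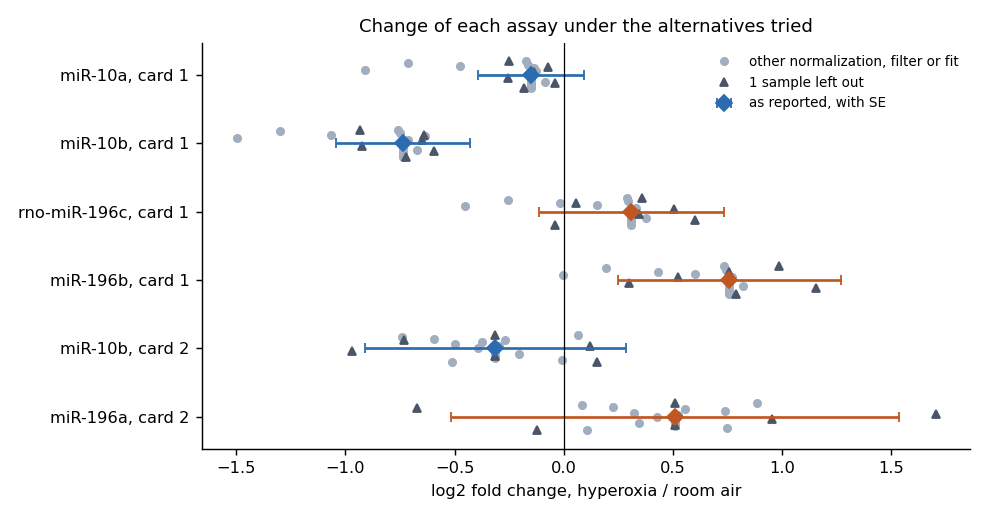
log2 fold change of hyperoxia over room air (x axis) for each member (y axis) as reported (diamonds with 1 SE) and under each alternative (circles for another normalization, filter or fit, triangles for 1 sample left out). miR-10a and miR-10b of the first card stay below 0 under all 23 alternatives, from -0.91 to -0.04 and from -1.497 to -0.59, while each other member crosses 0 under at least 1 alternative. Several of these alternatives leave first-card values unchanged by construction.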

How the data were processed

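The authors deposited 1 table of non-normalized Ct values, per the file headers, with 1 column per sample. Reverse transcription used Megaplex primer sets A and B, followed by 12 cycles of pre-amplification, per the labels' protocols. The instrument, software and Ct threshold are not given in the sources used here. The fold in the authors' deposited table is a ratio of hyperoxia to room air from group means; where it is printed it is theirs.

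Fitted changes with their errors, intervals and limma p-values come from limma 3.58.1 under R 4.3.3, applied to the deposited Ct. Ct means, ranks, gaps and permutation p-values were computed from the same Ct without limma. Sequences, edit distances and gene positions come from RefSeq. Wells at 35 or more were set to missing. The log2 relative abundance used 282 first-card and 249 second-card assays as reference. Assays entered the test with detection in 2 or more samples per group (302 and 249 assays), with lmFit and eBayes (prior degrees of freedom 1.62), two-sided, Benjamini-Hochberg adjustment and a threshold of 0.05. The fit was tested on simulated first-card data with all samples present. That simulation does not cover the second-card fits, which rest on fewer samples. Pairs of members were compared by exact permutation over samples. Named miRNAs are the members, other small RNAs of the Hox clusters, the relatives miR-99a, miR-99b, miR-100, miR-125a-5p and miR-125b-5p and, per member, the 3 assays with the most constant Ct difference. Members, lists and tests were chosen with earlier results of these data known. Alternatives covered the reference, normalization, Ct ceiling (32, 38 or none), the detection rule, shared second-card values, plate rows, the prior, a replicate block and leaving out each sample. The number of samples limits the precision.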

Additional observations from a re-analysis of the deposited data

How the results depend on the processing

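The count of assays past the threshold, 0 as reported, was 1 with a Ct ceiling of 32, 8 with no filter on Ct, 1 with the first card alone, 1 with a trended and robust prior, and 0 to 4 when 1 sample was left out, with 4 without hyperoxia 1. No member passed under the alternatives run for it: 23 for miR-10a, miR-10b and miR-196c of the first card, 22 for miR-196b and 21 for each second-card member. The count at an unadjusted limma p under 0.05, 50 as reported, was 124 without normalization, 27 with a replicate block and 23 to 55 with 1 sample left out. miR-10a and miR-10b of the first card kept their sign under all 23 alternatives, but not every alternative could move it. Removing the Ct filter, requiring detection in all samples and using the first card alone left first-card member values as reported by construction. The same holds for the shared second-card values, the prior and the replicate block. Without 1 sample the values ran from -0.25 to -0.04 for miR-10a and from -0.93 to -0.59 for miR-10b. miR-196b kept its sign in 21 of 22, with -0.0037 without normalization, and gave no value with a ceiling of 32. miR-196c reversed to -0.25 with the control RNA reference, -0.017 with the authors' U6 reference (first card, row A) and -0.45 without normalization, and ran from -0.041 to 0.60 with 1 sample left out; miR-125b-5p reversed to -0.36, -0.12 and -0.56 under the same 3 settings. The second-card miR-10b was 0.063 with the median reference and ran from -0.97 to 0.15 with 1 sample left out. miR-196a ran from -0.67 to 1.70, the minor strand of miR-196a from -3.64 to 10.07 and that of miR-10b from 2.04 to 10.89 with 1 sample left out, where a second-card group holds 1 sample whose spread is assumed to be like that of the others. Keeping the shared second-card values in only 1 sample was chosen after seeing the data and gave -0.01 and -0.51 for miR-10b. The cause of these changes was not tested.

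Same-numbered samples were not treated as pairs in the main fit. Their deviations correlated at -0.34, -0.23 and -0.18 over assays. Correlations between differently numbered samples were not computed, so these values do not settle whether the samples were paired. With a replicate block the log2 fold change of miR-10b stayed at -0.74 (adjusted p of 0.589 in limma), that of miR-10a at -0.15 and that of miR-196b at 0.76; second-card members could not be fitted with it. The pair differences were not fitted with a block. Assays late on the card, such as miR-196b, lie closest to the detection limit.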
